A study of Homo sapiens with 6 samples.

Results

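The EGF receptor family was followed through 10 genes of ARPE-19 cells kept for 72 h in high or normal glucose medium: the receptors EGFR, ERBB2 and ERBB3, the ligands TGFA, HBEGF, BTC, AREG, EREG and NRG1, and the inhibitor ERRFI1. They were chosen by symbol, as loci that hold an annotated transcript and carry the symbol as a name, and all 10 were found among the 56911 such loci of the deposited table (60835 loci in all). For ERBB3, which had more than one such locus, the locus with the highest mean count was used. ARPE-19 is an established human retinal pigment epithelium line, labelled wild type, and each group was represented by 3 libraries. The labels give no glucose concentration and leave it unsaid if replicates were grown as separate cultures. The p-values therefore cover only the variation seen among the 6 libraries, and that variation may be technical.

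ERBB receptors are tyrosine kinases of the cell surface that work as pairs. Their ligands are made as membrane-anchored precursors that proteases cut loose. TGFA, AREG, HBEGF, BTC and EREG bind EGFR, some of them ERBB4 as well, and NRG1 binds ERBB3 and ERBB4, while ERBB2 has no known ligand and serves as the preferred partner of the others. Signals pass through RAS and ERK and through phosphoinositide 3-kinase, and are damped by feedback proteins that the pathway itself induces, ERRFI1 among them. In the retinal pigment epithelium, EGFR signalling is known for its part in proliferation, migration and wound repair.

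Libraries held 81616741 to 87748820 counts. Levels are given as CPM, library-scaled counts after TMM normalization. Levels of different genes are compared only as the deposited FPKM, which is scaled to a length and to library size. That length was not the span of the locus. NRG1 spans 1134825 bases and had 76.4 CPM and an FPKM of 2.86 in normal glucose replicate 1. Whole-number counts of 4 were more frequent than of 3 or 5 (9555 values against 4210 and 2659), so a fragment may have been counted about 4 times, and 12 counts, or 3 such fragments, were taken as the limit of detection per library (0.135 to 0.146 CPM; counting error only). Changes are high minus normal glucose from edgeR's quasi-likelihood test, and a gene is said to have risen or fallen where its Benjamini-Hochberg adjusted p over all 25025 tested loci was under 0.05. Normal glucose replicate 3 stood apart on the second principal component (18% of variance), at -107.1 against 44 and 35.2 in replicates 1 and 2. On the first (49.7%), which parted the groups, it lay nearer to high glucose than they did. It was at -49.9 there, against -88.4 and -105.8 in replicates 1 and 2 and 79.2 to 84.1 in high glucose. Of 12 markers of retinal pigment epithelium, RPE65, RGR, TYR and DCT were at or under 12 counts in every library. The summed level of all 12 was 135 to 157 CPM in normal and 83.0 to 121 CPM in high glucose. It came mostly from MITF (means of 83.1 and 49.8 CPM) and OTX2 (38.6 and 43.0 CPM). Neither was called (edgeR adjusted p = 0.103 and 0.661). BEST1 alone of the 12 was called, and it fell (log2 change -2.21, edgeR adjusted p = 0.0113). The 5 epithelial markers summed to 448 to 984 CPM in normal and 2087 to 2209 CPM in high glucose. That sum came almost wholly from the keratins KRT8 and KRT18, which rose (edgeR adjusted p = 0.0152 and 0.00636). KRT19, CDH1 and EPCAM were not called (edgeR adjusted p = 0.345, 0.571 and 0.941). Their mean levels were 0.96, 0.43 and 0.14 CPM in normal and 2.32, 0.31 and 0.15 CPM in high glucose. The 7 fibroblast markers summed to 160 to 278 and 223 to 226 CPM. Among the fibroblast markers COL1A1 fell (log2 change -2.49, edgeR adjusted p = 0.0302), from 86.4, 39.2 and 12.9 CPM in normal glucose replicates 1, 2 and 3. PDGFRB rose (log2 change 0.68, edgeR adjusted p = 0.00573), and the others were not called. PDGFRA shares its locus with FIP1L1. Of 5 leukocyte markers, PTPRC and CD3E were at or under 12 counts throughout, and the sum (344 to 474 and 427 to 544 CPM) came almost wholly from CD68, which shares its locus with EIF4A1. CDH5 of 5 endothelial markers (summed level 10.6 to 17.1 and 3.25 to 4.58 CPM) was also at or under 12 counts throughout. KDR alone of the 5 was called, and it fell (log2 change -2.41, edgeR adjusted p = 0.00478). The part of these differences in the results below was not tested.

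In high glucose TGFA rose 2.53-fold and ERBB2 1.496-fold, while the levels of NRG1, AREG and ERRFI1 fell to 0.339, 0.197 and 0.706 of those in normal glucose. EGFR, HBEGF, BTC and the locus that holds ERBB3 did not pass the test, and EREG was too low to compare. All 10 genes passed the filter on low counts, and 2 were called higher and 3 lower, against 9.75% and 9.86% of all tested loci (19.6% in either direction, and 25.5% of loci with a protein-coding transcript). High glucose lay wholly above normal glucose at 3 of the 10 and wholly below it at another 3, against 21.8% and 20.5% of all tested loci (42.3% in either direction). Without normal glucose replicate 1 or 2, or without any one high glucose library, only TGFA and NRG1 were called (2 of 10), and without normal glucose replicate 3 the same 5 were. The calls over all tested loci numbered 4906 with every library. They numbered 2846, 2727 and 7615 without normal glucose replicates 1, 2 and 3, and 1631, 1421 and 1507 without high glucose replicates 1, 2 and 3. In bulk RNA, a change in the level per cell and a change in the share of cells that express a gene cannot be told apart.

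**Figure D1:**
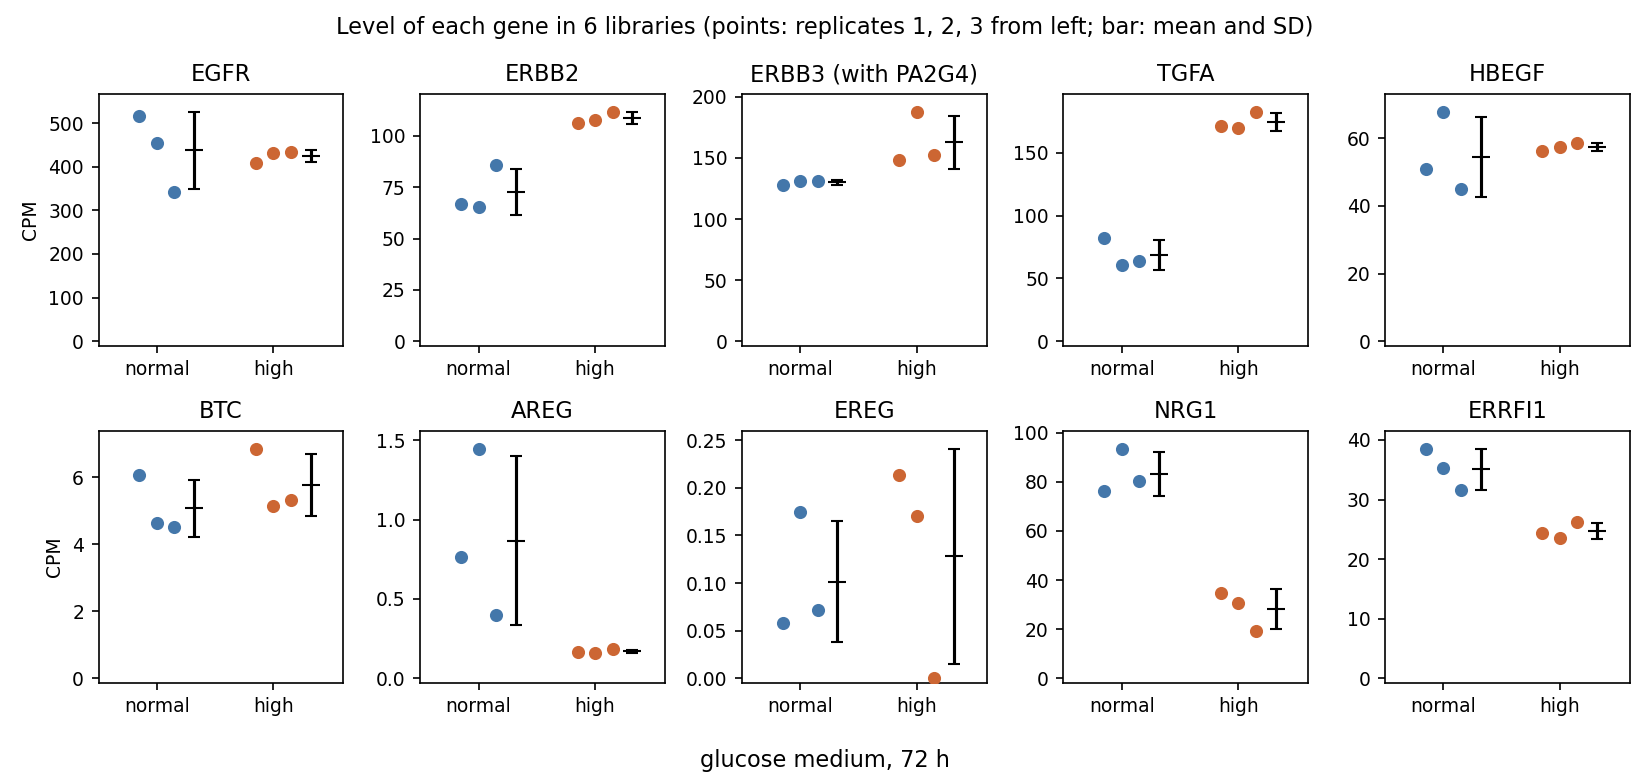
Level of each of the 10 genes in CPM (vertical axes, each from 0) in the 3 normal glucose libraries (blue) and the 3 high glucose libraries (orange), replicates 1 to 3 from left to right, with the mean and SD beside them. TGFA lay between 60.7 and 82.6 CPM in normal and between 170.0 and 183 CPM in high glucose, NRG1 moved the other way, and the EGFR groups overlapped.

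EGFR, the receptor of TGFA and of most of the ligands measured here, had the highest deposited FPKM of the 10 in normal glucose and lay at chr7:55019017-55211628 on the plus strand. Its level was 516, 454 and 342 CPM in normal glucose replicates 1, 2 and 3 and 409, 432 and 433 CPM in high glucose. The high glucose libraries fell inside the wide range of normal glucose. The log2 change was -0.04, with a 95% interval of -0.41 to 0.33 (edgeR adjusted p = 0.878), so a change of more than 1.25-fold up or to less than 0.752 of the normal level lay outside the interval. ERBB2, the partner receptor at chr17:39687914-39728662, stood at 66.6, 65.5 and 85.6 CPM in normal and 106, 108 and 112 CPM in high glucose. All high glucose libraries were above all normal glucose libraries, with normal glucose replicate 3 the nearest to them. ERBB2 rose by 0.58 on the log2 scale (SE 0.13; edgeR adjusted p = 0.0239). Its adjusted p was 0.0728 and 0.0703 without normal glucose replicates 1 and 2, and 0.0803, 0.0881 and 0.091 without high glucose replicates 1, 2 and 3, with log2 changes of 0.51 to 0.60. The ERBB2 locus overlaps PGAP3 and MIEN1 on the other strand, and no source says that counting used strand. PGAP3 had a mean of 1293 counts against 7775 for ERBB2 and also rose (log2 change 0.82; edgeR adjusted p = 0.018), and MIEN1 had 925.5 counts and a log2 change of -0.06 (edgeR adjusted p = 0.874).

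ERBB3, the receptor of NRG1 that lacks strong kinase activity of its own, could not be measured alone. Its locus at chr12:56076799-56113907 also holds PA2G4, a widely expressed gene whose protein is known to bind ERBB3, and a clone-named transcript. The joint locus stood at 128, 131 and 131 CPM in normal and 148, 188 and 152 CPM in high glucose. The groups did not overlap, with high glucose replicate 2 the highest library, but the log2 change of 0.32 did not pass the test (95% interval 0.04 to 0.60; edgeR adjusted p = 0.101). A second locus that carries the name ERBB3 was at 0 counts in all libraries. ERBB4, the other neuregulin receptor (named after its values were seen), was at 26.6, 10.2 and 27.6 CPM in normal and 33.9, 27.2 and 28.3 CPM in high glucose, with the second normal glucose library low (log2 change 0.47; 95% interval -0.36 to 1.30; edgeR adjusted p = 0.397).

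TGFA, a ligand of EGFR released from the cell surface, rose. It was at 82.6, 60.7 and 63.5 CPM in normal glucose replicates 1, 2 and 3 and at 171, 170.0 and 183 CPM in high glucose. Every high glucose library lay far above the highest normal glucose library, replicate 1. The log2 change was 1.34 (SE 0.14; 95% interval 1.01 to 1.67; edgeR adjusted p = 0.00293), and it ranged from 1.26 to 1.49, with adjusted p of 0.00204 to 0.0233, when single libraries were left out. HBEGF, the heparin-binding ligand, stood at 50.8, 67.8 and 45.03 CPM in normal and 56.3, 57.3 and 58.5 CPM in high glucose. All its high glucose libraries lay within the normal glucose range (log2 change 0.07; 95% interval -0.31 to 0.45; edgeR adjusted p = 0.791; -0.05 without normal glucose replicate 3). BTC, betacellulin, a ligand of EGFR and ERBB4, was at 6.05, 4.63 and 4.51 CPM in normal and 6.84, 5.15 and 5.32 CPM in high glucose. The groups overlapped (log2 change 0.19; 95% interval -0.30 to 0.68; edgeR adjusted p = 0.574).

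AREG, amphiregulin, was near the limit of detection. Its counts were 66, 124 and 33 in normal glucose replicates 1, 2 and 3 and 15, 14 and 15 in high glucose. The normal glucose libraries differed among themselves by far (33 against 124 counts), and the high glucose libraries held little more than the 12 counts taken as the limit. AREG fell by 2.34 on the log2 scale (SE 0.54; 95% interval -3.62 to -1.07; edgeR adjusted p = 0.0261). The adjusted p was 0.0606 and 0.0847 without normal glucose replicates 1 and 2 and 0.0906, 0.0968 and 0.088 without high glucose replicates 1, 2 and 3; without normal glucose replicate 2 the log2 change was -1.76. With limma on log2 FPKM it was not called (adjusted p of 0.0579 to 0.148 over 3 settings), and it was left untested at a minimum of 1 CPM in 3 libraries. EREG, epiregulin, held 5, 15 and 6 counts in normal and 19, 15 and 0 in high glucose. Both group means were under 12 counts, so no fold is given. AREG and EREG lie beside each other on chromosome 4 (AREG at 74445136-74455005, EREG at 74365145-74388749), 56.4 kb apart, in a stretch of 486 kb that runs from EPGN to BTC and holds the genes of 4 EGFR ligands. EPGN, epigen, was at 15, 19 and 8 counts in normal and 12, 14 and 15 in high glucose (log2 change -0.05; edgeR adjusted p = 0.969), so of the 4 neighbours AREG alone was called.

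The start regions of 3 ligands are shown because they are the abundant ligand that rose (TGFA), the abundant ligand that was not called (HBEGF) and the scarce ligand that fell (AREG). Each is 300 bases from RefSeq (GRCh38.p14), 250 before and 50 from the annotated start, written 5′ to 3′ on the gene's strand. Windows were searched for 8 of the 10 genes. ERBB3 had no window, and NRG1 was left out. Capitals mark the motifs searched on both strands: the GC box GGGCGG, the cyclic AMP response element TGACGTCA, the AP-1 site TGANTCA, the E-box CACGTG, the TATA box TATAAA and the CCAAT box CCAAT.
TGFA (chr2:70553777-70554076, minus strand): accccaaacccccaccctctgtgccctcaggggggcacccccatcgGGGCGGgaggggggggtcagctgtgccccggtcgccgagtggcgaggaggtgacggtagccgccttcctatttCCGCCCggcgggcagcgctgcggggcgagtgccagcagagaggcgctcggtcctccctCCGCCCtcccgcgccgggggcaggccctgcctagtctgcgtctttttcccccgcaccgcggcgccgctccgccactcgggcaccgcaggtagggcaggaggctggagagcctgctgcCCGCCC
HBEGF (chr5:140346554-140346853, minus strand): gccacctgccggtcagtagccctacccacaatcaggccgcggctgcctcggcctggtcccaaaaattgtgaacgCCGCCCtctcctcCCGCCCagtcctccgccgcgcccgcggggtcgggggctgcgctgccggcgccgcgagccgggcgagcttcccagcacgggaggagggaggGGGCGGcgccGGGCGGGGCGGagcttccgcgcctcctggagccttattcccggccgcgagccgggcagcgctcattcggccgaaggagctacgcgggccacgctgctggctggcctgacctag
AREG (chr4:74444886-74445185, plus strand): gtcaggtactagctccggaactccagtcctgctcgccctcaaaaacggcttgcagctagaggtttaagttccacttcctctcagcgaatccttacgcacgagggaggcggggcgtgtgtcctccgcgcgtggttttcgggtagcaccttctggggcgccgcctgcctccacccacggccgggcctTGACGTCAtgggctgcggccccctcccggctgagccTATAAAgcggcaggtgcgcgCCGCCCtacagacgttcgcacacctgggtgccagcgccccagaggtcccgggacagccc
TGFA held 4 GC boxes and HBEGF 5, of which 2 share a base, and neither window held any other motif of the 6. AREG held 1 GC box, a TATA box whose first base lies 29 bases before the start, and a complete cyclic AMP response element 65 bases before it. Of 35116 RefSeq windows of this length, 45% held a GC box, 11.5% a TATA box and 1.85% the response element. EREG, the neighbour of AREG, also held a TATA box (32 bases before the start) but not the response element, and no window of the 8 held the E-box, found in 7.26% of all windows. These matches describe letters only.

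Per kilobase, TGFA and HBEGF made up most of the EGFR ligand messages in both media, and their order changed. Summed over TGFA, HBEGF, BTC, EGF, AREG, EPGN and EREG, the deposited FPKM was 28.3 ± 3.47 in normal and 47.5 ± 1.11 in high glucose (SD, n = 3). TGFA held 39.9% ± 6.81 of that sum in normal and 61.6% ± 0.860 in high glucose (SD, n = 3), and HBEGF 51.5% ± 6.99 and 33.3% ± 0.503. The ratio of TGFA to HBEGF was 0.988, 0.544 and 0.858 in normal glucose replicates 1, 2 and 3 and 1.85, 1.80 and 1.90 in high glucose. These shares are described without a test, and they rest on TGFA, the only one of these 2 ligands that was called. EGF itself, the namesake (chosen after its values were seen), stayed low at 0.447 ± 0.00644 and 0.524 ± 0.113 FPKM (SD, n = 3; log2 change of the counts 0.19; edgeR adjusted p = 0.581). AREG held 1.44% ± 0.769 of the sum in normal and 0.173% ± 0.00751 in high glucose.

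**Figure D2:**
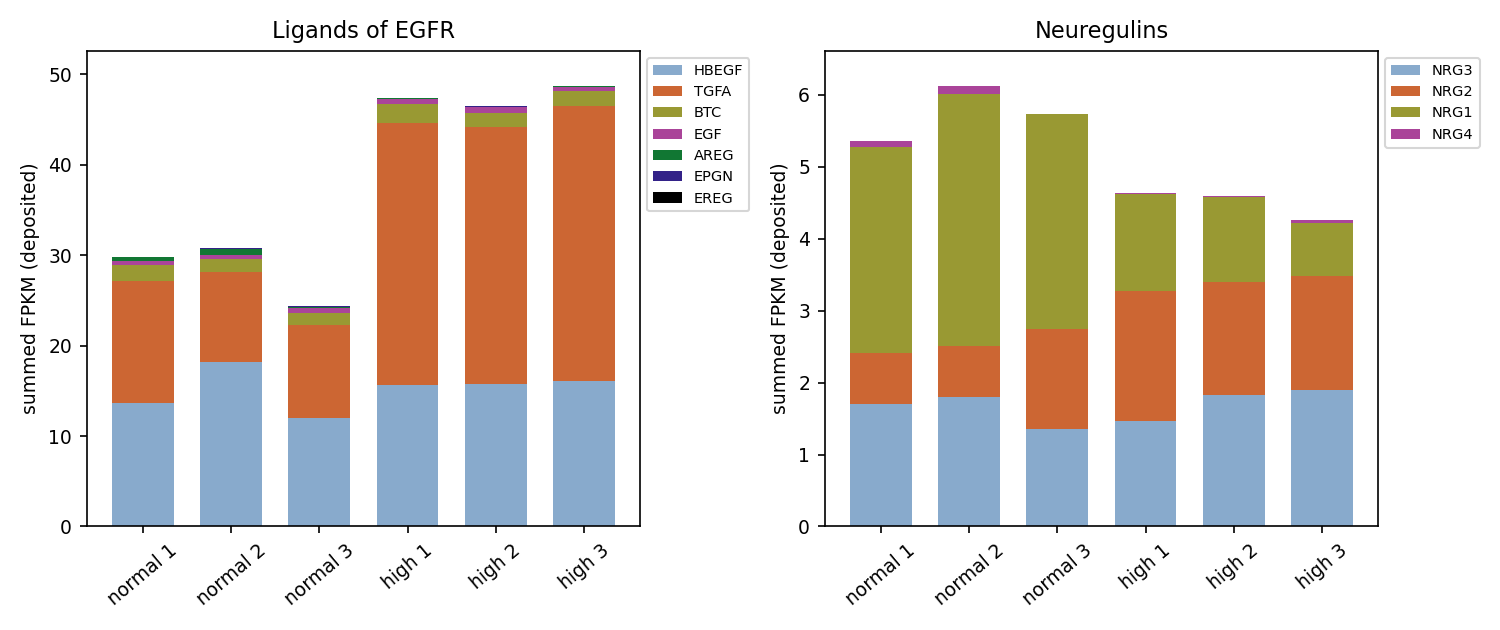
Deposited FPKM per library, stacked by gene, for 7 ligands of EGFR (left) and 4 neuregulins (right); the 2 vertical axes differ in scale. TGFA (orange, left) fills 61.0% to 62.6% of the EGFR ligand sum in the high glucose libraries and 32.2% to 45.2% in normal glucose, and NRG1 (olive, right) holds a mean of 54.2% of the neuregulin sum in normal and 24.0% in high glucose.

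In normal glucose the order by FPKM was EGFR (28.04 ± 5.74), HBEGF (14.6 ± 3.23), TGFA (11.2 ± 1.96), ERBB2 (5.58 ± 0.845), ERRFI1 (3.78 ± 0.380), NRG1 (3.12 ± 0.340), BTC (1.53 ± 0.263), AREG (0.423 ± 0.260) and EREG (0.0132 ± 0.00923), all SD with n = 3 and ERBB3 left out because of PA2G4. HBEGF and TGFA overlapped in their libraries there, and so did ERRFI1 and NRG1. In high glucose TGFA (29.3 ± 1.07) and EGFR (27.98 ± 0.675) overlapped at their edges, and both stood above HBEGF (15.8 ± 0.206), ERBB2 (8.60 ± 0.179), ERRFI1 (2.75 ± 0.146), BTC (1.79 ± 0.305), NRG1 (1.09 ± 0.316) and AREG (0.0821 ± 0.00505). NRG1 thus stood above BTC in every normal glucose library and below it in every high glucose library.

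NRG1, the neuregulin that activates ERBB3 and ERBB4, fell. The locus (chr8:31639222-32774046, with a clone-named transcript) stood at 76.4, 93.4 and 80.3 CPM in normal and 34.8, 30.7 and 19.3 CPM in high glucose. All high glucose libraries were below all normal glucose libraries, with high glucose replicate 3 the lowest. The log2 change was -1.56 (SE 0.22; 95% interval -2.09 to -1.03; edgeR adjusted p = 0.00657), and -1.73 to -1.34 with adjusted p of 0.0063 to 0.0357 when single libraries were left out. The locus spans a long stretch with many alternative first exons, and the table does not resolve them. NRG1 held 54.2% ± 2.68 of the summed FPKM of NRG1, NRG2, NRG3 and NRG4 in normal and 24.0% ± 6.07 in high glucose (SD, n = 3), and the sum was 5.74 ± 0.380 and 4.50 ± 0.206 FPKM. NRG2, a related ligand named after its values were seen, was at 4.11, 4.09 and 8.06 CPM in normal and 10.1, 8.87 and 8.92 CPM in high glucose. It did not pass the test (log2 change 0.78; 95% interval 0.09 to 1.46; edgeR adjusted p = 0.107), but was called without normal glucose replicate 3 (1.18; 0.00278) and with a limma-voom weight per group (0.86; 0.0492), both as log2 change and adjusted p.

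ERRFI1, also called MIG6, binds the kinase domains of EGFR and ERBB2 and blocks them, and is itself induced by growth factors and stress. It was at 38.4, 35.2 and 31.6 CPM in normal and 24.5, 23.6 and 26.2 CPM in high glucose. Every high glucose library was below every normal glucose library. It fell by 0.50 on the log2 scale (SE 0.12; 95% interval -0.79 to -0.21; edgeR adjusted p = 0.0312). Its adjusted p was 0.0848 and 0.0756 without normal glucose replicates 1 and 2 and 0.115, 0.127 and 0.0881 without high glucose replicates 1, 2 and 3, and 0.0528 to 0.0728 with limma on log2 FPKM. The locus (chr1:8004404-8026309) overlaps that of PARK7 on the other strand, which held a mean of 5478 counts against 2566 and had the opposite direction (log2 change 0.45; edgeR adjusted p = 0.0735).

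**Figure D3:**
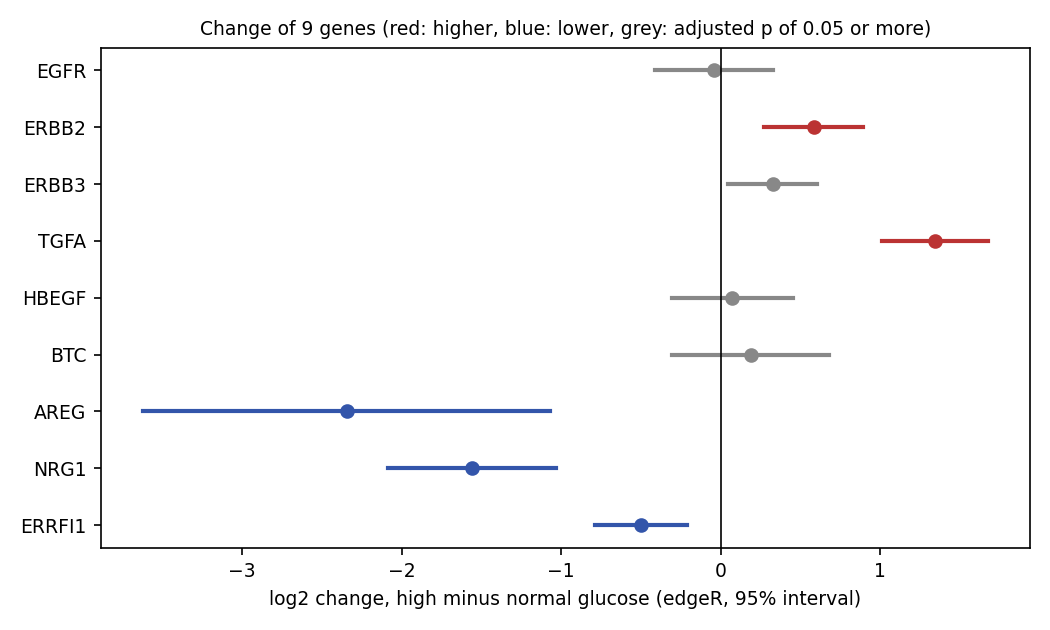
Log2 change of 9 genes, high minus normal glucose, as edgeR estimates with 95% intervals (horizontal axis, log scale of base 2). EREG is left out because both group means were under 12 counts. The intervals of TGFA and ERBB2 lie above 0, those of NRG1, AREG and ERRFI1 below it, those of EGFR, HBEGF and BTC cross it, and that of the ERBB3 locus (with PA2G4) runs from 0.04 to 0.60 without a call.

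Among genes that act on the ligands before they are released, RHBDF2 and RHBDL2 rose and TIMP3 fell, while ADAM10 and ADAM17 were not called. Of 10 genes of ligand shedding, 2 rose and 1 fell, against 9.75% higher and 9.86% lower among all tested loci and 25.5% in either direction among loci with a protein-coding transcript. The median log2 change was 0.17, against -0.004 over all tested loci. These counts are a description. RHBDF2, which encodes iRhom2, the partner that carries the sheddase ADAM17 to the surface, was at 10.0, 7.23 and 12.1 CPM in normal and 38.0, 36.0 and 35.9 CPM in high glucose. That is a 3.74-fold rise with no overlap (log2 change 1.90, SE 0.20; edgeR adjusted p = 0.00292). RHBDL2, a rhomboid protease of the cell surface, rose from 2.68 ± 0.0405 to 5.94 ± 0.649 CPM (SD, n = 3; edgeR adjusted p = 0.00818). TIMP3, a matrix-bound inhibitor of metalloproteases including ADAM17, fell from 1477 ± 44.8 to 859 ± 10.6 CPM (SD, n = 3; edgeR adjusted p = 0.00358). ADAM17 stood at 121, 101 and 71.0 CPM in normal and 77.4, 83.4 and 77.8 CPM in high glucose, and normal glucose replicate 3 was the lowest library of all (log2 change -0.29; 95% interval -0.74 to 0.15; edgeR adjusted p = 0.323). For ADAM10, the other main sheddase, the log2 change was 0.25 (edgeR adjusted p = 0.268). Both sheddases are named after their values were seen. Without normal glucose replicate 3, 4 genes of the list rose and 2 fell, ADAM10 (0.42) and ADAM17 (-0.48) among them, and without any other single library 2 rose and 1 fell. Calls over all tested loci numbered 7615 without normal glucose replicate 3, against 4906 with every library.

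Of 6 other receptors and ligands of the family (ERBB4, EGF, EPGN, NRG2, NRG3 and NRG4), none was called with edgeR. Among all tested loci 19.6% were called, and 25.5% of loci with a protein-coding transcript. An unadjusted p under 0.05 was seen for 1 of the 6, against 8648 of all 25025 tested loci. DESeq2 and limma on log2 FPKM also called none, and the fit with a weight per group called 1 (NRG2), as did edgeR without normal glucose replicate 3. NRG4 was at 50, 63 and 5 counts in normal and 7, 10 and 24 in high glucose, so the limit of detection of 12 counts lay within both groups.

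Of 16 genes of receptor turnover and restraint, 2 rose and 3 fell (median log2 change -0.32). That is a share of 31.2%, against 19.6% of all tested loci and 25.5% of protein-coding loci. The 2 that rose were phosphatases. PTPN12, another phosphatase of the list (named after its values were seen), was not called (log2 change -0.10, edgeR adjusted p = 0.77). PTPN1, which removes phosphate from EGFR among other receptors, was at 93.7, 81.9 and 114 CPM in normal and 231, 223 and 244 CPM in high glucose (log2 change 1.27, SE 0.14; edgeR adjusted p = 0.00316). PTPRJ, a receptor-type phosphatase, rose from 76.7 ± 10.98 to 179 ± 22.0 CPM (SD, n = 3; edgeR adjusted p = 0.00417). CBL, the ubiquitin ligase that sends active EGFR to degradation, fell from 188 ± 34.1 to 125 ± 8.33 CPM (SD, n = 3; edgeR adjusted p = 0.0377). LRIG3, of a family of transmembrane regulators of ERBB receptors, fell from 11.2 ± 2.76 to 5.83 ± 0.764 CPM (SD, n = 3; edgeR adjusted p = 0.0269). SOCS4, a suppressor of cytokine signalling protein that also binds EGFR, fell from 91.1 ± 4.79 to 67.9 ± 0.240 CPM (SD, n = 3; edgeR adjusted p = 0.0235). PTPN1 and PTPRJ were called without each library in turn. CBL and LRIG3 lost their call without any one library but normal glucose replicate 3 (adjusted p of 0.104 to 0.133 and 0.0558 to 0.105), and SOCS4 lost its call without normal glucose replicate 2 and without each high glucose library (0.059 to 0.102). Called genes of this list numbered 3, 2 and 10 without normal glucose replicates 1, 2 and 3 and 2 without each high glucose library. Over all tested loci, calls ran from 1421 to 7615 with the same omissions, with the most without normal glucose replicate 3.

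Of 23 adaptors and signal carriers, 1 rose and 3 fell (median log2 change -0.03). That is a share of 17.4%, against 19.6% of all tested loci and 25.5% of loci with a protein-coding transcript. SHC1, an adaptor that docks on active receptors, in a locus with PYGO2, rose from 297 ± 15.5 to 458 ± 33.5 CPM (SD, n = 3; edgeR adjusted p = 0.00951), with an adjusted p of 0.0517 without high glucose replicate 3. MAP2K2, which encodes the kinase MEK2 that activates ERK, was at 226, 250.9 and 208 CPM in normal and 130.3, 123 and 121 CPM in high glucose (edgeR adjusted p = 0.00447; log2 change -0.87, SE 0.11). ARAF, a RAF kinase upstream of it, fell from 84.9 ± 11.4 to 50.9 ± 2.56 CPM (SD, n = 3; edgeR adjusted p = 0.0111), with 0.0605 and 0.0587 without high glucose replicates 2 and 3. PIK3CA, a catalytic subunit of phosphoinositide 3-kinase, fell from 63.5 ± 3.38 to 46.2 ± 3.94 CPM (SD, n = 3; edgeR adjusted p = 0.03), with 0.0631 to 0.126 without any one library but normal glucose replicate 3. Called genes numbered 3, 3 and 12 without normal glucose replicates 1, 2 and 3 and 3, 2 and 1 without high glucose replicates 1, 2 and 3. The calls over all tested loci also moved, from 1421 without high glucose replicate 2 to 7615 without normal glucose replicate 3.

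Of 16 genes that respond to ERK signalling, 1 rose, 6 fell and 9 were not called, against 9.75% higher and 9.86% lower among all tested loci (median log2 change -0.48, against -0.004). DUSP6, 1 of the 9 (named after its values were seen), shares its locus with POC1B and GALNT4 and was not measured alone. Called genes made up 43.75% of the list, against 25.5% of loci with a protein-coding transcript. IER3, an early response gene that prolongs ERK activity, was at 275, 295 and 383 CPM in normal and 107, 104 and 105 CPM in high glucose. The groups lay far apart (log2 change -1.59, SE 0.14; edgeR adjusted p = 0.00234). DUSP5, a nuclear ERK phosphatase, fell from 103 ± 8.95 to 53.6 ± 2.51 CPM (SD, n = 3; edgeR adjusted p = 0.00358). ETV5, an ETS factor induced by receptor tyrosine kinases, in a locus with DGKG, fell from 159 ± 37.1 to 81.8 ± 3.08 CPM (SD, n = 3; edgeR adjusted p = 0.0138), with 0.0587 to 0.0636 without each high glucose library. PHLDA1, SPRED2 and SPRY2, of which SPRED2 and SPRY2 restrain the RAS pathway, also fell, and are named after their values were seen (log2 changes of -0.97, -0.57 and -0.45). EGR1, an immediate early factor, rose, from 1.07, 2.33 and 1.19 CPM to 3.36, 4.01 and 3.48 CPM (edgeR adjusted p = 0.0417; log2 change 1.24, SE 0.33), with 0.0668 to 0.133 without any one library but normal glucose replicate 2. IER3 and DUSP5 were called without each library in turn. Called genes numbered 4, 5 and 10 without normal glucose replicates 1, 2 and 3 and 2, 3 and 2 without high glucose replicates 1, 2 and 3. Among all tested loci the same omissions left 1421 to 7615 calls, with the most without normal glucose replicate 3. PHLDA1 had adjusted p of 0.109 to 0.152 without each library but normal glucose replicate 3 and high glucose replicate 2, SPRY2 of 0.067 to 0.138 without each but normal glucose replicate 3, and SPRED2 of 0.0549 to 0.08 without each high glucose library.

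**Figure D4:**
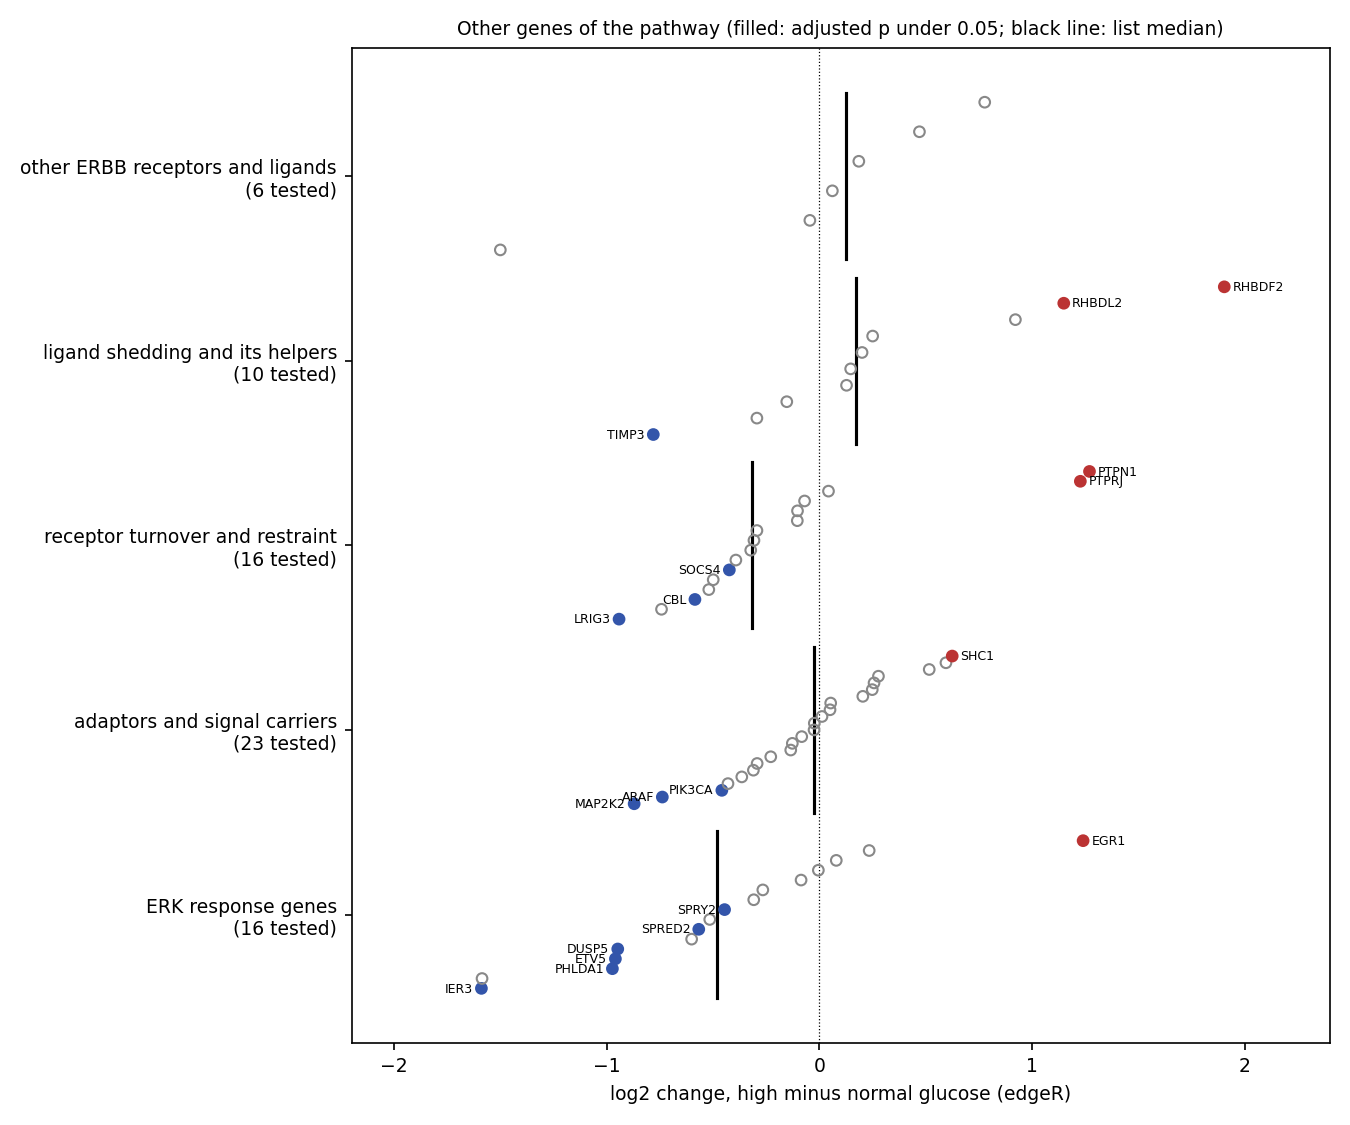
Log2 change, high minus normal glucose (horizontal axis, edgeR estimates), of the genes in 5 pathway lists, 1 point a gene, sorted by value within each list. Filled red points rose and filled blue points fell, open points were not called, and black lines mark the medians, which run from -0.48 for ERK response genes to 0.17 for ligand shedding.

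The loci whose profile over the 6 libraries was most like that of EGFR were PAQR7, PLD1 and EPG5. Among 11927 other tested loci with 1 name and a protein-coding transcript, their log2 CPM, centred on each locus's own mean, differed from that of EGFR by a root mean square of 0.02, 0.03 and 0.05. Like EGFR, these 3 were lowest in normal glucose replicate 3, and none was called (edgeR adjusted p of 0.89 to 0.956). Both traits follow from the choice by profile. For AREG, the called ligand with the largest change, the nearest were SIPA1L2, OSBPL6 and SLC3A2, at 0.15, 0.16 and 0.17. SLC3A2, the heavy chain of amino acid transporters at the cell surface, was at 499.7, 852 and 207 CPM in normal and 127, 118 and 129 CPM in high glucose. By the same choice, SIPA1L2, OSBPL6 and SLC3A2 had the same order of the normal glucose libraries as AREG.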

How the data were processed

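RNA of 6 libraries of ARPE-19 cells was sequenced as read pairs after extraction with Trizol and passage over oligo-dT beads, per the labels' protocols. The authors deposited 1 table of 60835 loci with whole-number counts, not normalized, and FPKM values. The FPKM values were scaled for depth and for a length other than the span of the locus, as the headers and values show. A locus without counts has an FPKM of 0.0001. Bowtie 0.12.2 and mm8, a mouse build, are named in the submitters' processing notes, but names and positions in the table are human. All 10 genes overlap their GRCh38.p14 positions, and printed coordinates are those of the table. The counter was not given in the sources used here. 37 mitochondrial loci, all at 0, were left out.

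Counts were filtered with filterByExpr (25025 loci kept), scaled by TMM and tested with edgeR 4.0.16 (estimateDisp, glmQLFit, glmQLFTest; group only; 2-sided) in R 4.3.3. SE is the size of the log2 change divided by the square root of F, and 95% intervals use the test's degrees of freedom. The model was tested on simulated counts. Alternatives were RLE and upper-quartile scaling, DESeq2 1.42.0, other filters, a replicate block, limma 3.58.1 on log2(FPKM + 1) and log2(FPKM + 0.1), limma-voom with group weights, counts divided by 4, summed rows, and the omission of each library. Likeness used log2(CPM + 0.1).

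The 10 genes and the pathway lists were chosen with earlier results of these data known. Named genes are the 10, the called genes of each list (where over 5, the 3 with the smallest adjusted p in each direction), list genes at 0 or under the filter (none), and the 3 loci nearest in profile to EGFR and to the called ligand with the largest change. Some others are marked as named after their values were seen. EPGN, NRG3, NRG4, marker genes, overlapping genes and noncoding transcripts also fall outside this rule and carry no mark. One further marker list is not reported here.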

Additional observations from a re-analysis of the deposited data

How the results depend on the processing

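The direction of TGFA, ERBB2, NRG1, AREG, ERRFI1, BTC and the ERBB3 locus was the same in every alternative that gave a value, and TGFA and NRG1 were called in all of them. EGFR had log2 changes of 0.017, 0.018 and 0.017 with limma on log2(FPKM + 1), on log2(FPKM + 0.1) and on log2(FPKM + 1) without a filter. With single libraries left out, EGFR ranged from -0.19 to 0.092, HBEGF from -0.048 to 0.26 and NRG3 from -0.048 to 0.18, and none of these values was called. AREG was not tested with counts divided by 4 or at a minimum of 1 CPM. No scaling moved the median of all loci by more than 0.1.

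With limma on log2 FPKM, 3 of the 10 genes and 3 restraint genes were called at either pseudocount and without a filter, and without a filter 3144 loci, of which 1919 were higher and 1225 lower, against 2439 and 2467 with edgeR. With a weight per group, 1 of the 6 other receptors and ligands was called. Over the omission of single libraries, called loci numbered 1421 to 7615, family genes 2 to 5, other receptors and ligands 0 to 1, shedding genes 3 to 6, restraint genes 2 to 10, adaptors 1 to 12 and ERK response genes 2 to 10. Omission leaves fewer libraries for the test. The rise of the TGFA share of ligand FPKM ranged from 17.8 to 24.3 percentage points. The causes of these shifts were not tested.

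Same-numbered libraries are not known to share more than a number. Their deviations from the group means correlated at -0.017, -0.00076 and -0.0094 for replicates 1, 2 and 3. Such values cannot show whether they were handled together. With the replicate number as a block, 2545 loci were called, and 2 of the 10 genes (TGFA and NRG1) and 2 restraint genes.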

Other observations

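Noncoding transcripts inside loci of the family were measured as follows. EGFR-AS1, an antisense transcript inside the EGFR locus, was at 2.69, 1.21 and 1.20 CPM in normal glucose replicates 1, 2 and 3 and 2.34, 2.34 and 2.09 CPM in high glucose (log2 change 0.41; 95% interval -0.44 to 1.25; edgeR adjusted p = 0.474). The locus of NRG3-AS1, shared with a clone-named transcript, held 24, 21 and 10 counts in normal and 50, 39 and 38 in high glucose, without overlap of the groups, and did not pass the test (log2 change 1.18; edgeR adjusted p = 0.124). TGFA-IT1 and NRG1-IT1, intronic transcripts, were at or under 6 and 10 counts in every library, below the limit of 12 counts.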
